A study of Mus musculus with 48 samples.

Results

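Transcripts of the TGF-beta and BMP pathway were followed in NIH3T3 cells, a mouse fibroblast line, through 10 genes: the ligand genes Tgfb1, Tgfb2, Tgfb3, Bmp4 and Inhba, the genes of the secreted inhibitors Grem1 and Fst, the inhibitory Smad genes Smad6 and Smad7, and the target Tgfbi. They were taken by symbol, as every probe set annotated to 1 of these names on the array, which gave 20 probe sets of 45037 and 10 genes of 18193. Cells at confluence in medium with fetal calf serum received forskolin, which activates adenylyl cyclase and brings the circadian clocks of the cells into a common phase, and RNA was taken every hour from hour 20 to hour 67 after that pulse. Each of the 48 samples was put on an Affymetrix mouse genome array of its own. The arrays form 2 windows of 24 hourly samples each, hours 44 to 67 and hours 20 to 43, so that each window covers a full day. Cells of both windows had received forskolin, and cells without it are not analysed here. A line grown in dishes is the model here, with 1 array for each hour, so the arrays of a window are successive hours and not replicates of a condition.

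Ligands of the TGF-beta family bind pairs of type I and type II receptor kinases, which phosphorylate receptor-activated Smad proteins. These join Smad4 and move to the nucleus, where they raise or lower transcription, TGF-beta and activin mainly through Smad2 and Smad3 and BMPs mainly through Smad1, Smad5 and Smad9. The pathway is held in check outside the cell by proteins that trap the ligands and inside it by Smad6 and Smad7, whose genes are themselves targets of the pathway. In fibroblasts TGF-beta is best known for raising the synthesis of extracellular matrix.

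The promoters of a ligand gene that was higher in the later window (Tgfb2), of the target gene that was lower (Tgfbi) and of a ligand gene that passed in neither direction (Tgfb1) are shown as the 250 bases before the RefSeq start on GRCm38.p6, 5′ to 3′ on the gene's strand. Capitals mark matches on either strand to the letters TGACG (the core of the cyclic AMP response element), CAGAC (the Smad box), CACGTG (the E-box bound by clock proteins), GGGCGG (the GC box) and TATAAA (the TATA box).
Tgfb2, chr1:186705990-186706239, minus strand: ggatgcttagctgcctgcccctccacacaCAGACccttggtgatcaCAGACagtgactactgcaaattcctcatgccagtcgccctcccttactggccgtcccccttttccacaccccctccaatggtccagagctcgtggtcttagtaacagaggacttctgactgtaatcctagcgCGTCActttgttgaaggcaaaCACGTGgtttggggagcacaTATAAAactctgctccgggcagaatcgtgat
Tgfbi, chr13:56609336-56609585, plus strand: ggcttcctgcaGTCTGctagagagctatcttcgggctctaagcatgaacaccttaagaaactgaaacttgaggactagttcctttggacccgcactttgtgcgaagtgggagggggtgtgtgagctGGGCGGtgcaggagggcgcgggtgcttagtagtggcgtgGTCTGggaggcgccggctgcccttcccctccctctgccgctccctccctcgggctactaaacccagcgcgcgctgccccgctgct
Tgfb1, chr7:25686752-25687001, plus strand: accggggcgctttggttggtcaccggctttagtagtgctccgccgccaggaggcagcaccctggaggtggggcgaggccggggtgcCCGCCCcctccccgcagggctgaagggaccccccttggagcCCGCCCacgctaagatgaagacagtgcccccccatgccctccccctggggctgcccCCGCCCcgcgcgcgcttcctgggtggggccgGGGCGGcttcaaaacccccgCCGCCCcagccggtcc
The Tgfb2 window held a match to the core of the cyclic AMP response element 72 bases before the start, an E-box at 51 bases, a TATA box at 31 bases and Smad boxes at 221 and 204 bases. It lies inside the span that RefSeq gives the whole gene, which reaches farther upstream. The Tgfbi window held Smad boxes at 239 and 85 bases and a GC box at 124 bases, and the Tgfb1 window held 5 GC boxes. Such matches are common. Of 32851 RefSeq windows of this length, 17.8% held the core TGACG, 42.2% a Smad box, 6.02% an E-box, 32.7% a GC box and 12.4% a TATA box. The full element TGACGTCA (1.55% of windows, and counted with the core as well) and the AP-1 site TGANTCA (6.75%) were in none of the 7 member windows. A match is a description of the letters only. The GC content was 53.6% for Tgfb2, 62.4% for Tgfbi and 75.2% for Tgfb1, against a median of 52.4% over all windows.

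Values are log2 of probe set intensity. A difference of 1 between windows is a doubling. Levels of different probe sets are compared only to pick 1 per gene and to place it against the median or the lowest value. Those of a marker list are also summed. Where a gene had several probe sets, the 1 with the highest mean leads. Leading probe sets of 6 genes (Tgfb1, Tgfb2, Tgfb3, Fst, Smad7 and Tgfbi) lay above the median level of the arrays (6.67), and those of Bmp4, Inhba, Grem1 and Smad6 lay below it. Bmp4, Grem1 and Smad6 were on most arrays close to the lowest value measured (5.12), whereas Inhba, with a mean of 6.45, lay just under the median. The cells carried their label: 10 of 10 fibroblast markers lay above the median, against 0 of 5 epithelial and 0 of 5 endothelial markers. Of the smooth muscle markers 2 of 5 lay above it, and of the macrophage and leukocyte markers 2 of 6. Array quality was uneven. The signal at the 3′ end of β-actin stood above that at its 5′ end by a median of 1.13, a gap that grows when RNA or cDNA is short, and the gap passed 1.4 on 3 arrays of hours 44 to 67 and on 7 arrays of hours 20 to 43. It was largest at hours 36, 20 and 45. The arrays of hours 36 and 20 also stood apart from their neighbours (median absolute differences 0.32 and 0.31, against 0.11 for the median array).

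Of the 10 genes, 2 were higher in the later window (Tgfb2 and Tgfb3), 2 were lower (Tgfbi and Fst) and 6 did not pass limma's moderated test, a linear model fitted over all probe sets, at a Benjamini-Hochberg adjusted p of 0.05. Over all probe sets 26.5% passed in either direction, 12.6% higher and 13.8% lower, and among probe sets above the median level 23.6% were higher and 22.9% lower. The share of members called lies near that background, so the count says little of the members. The Tgfbi difference ranked 97 from the lowest of 45037. No member's windows were free of overlap, a separation that 0.0466% of all probe sets showed upward and 0.0555% downward. The test measures the scatter of hourly arrays around the fitted course, 1 culture sample per hour. With hours averaged in blocks of 6 h, 4 blocks against 4, limma passed 0 of 45037 probe sets (9479 had an unadjusted p under 0.05, the same 4 genes among the members), with adjusted p of 0.1005 for Tgfbi and Tgfb3, 0.1101 for Tgfb2 and 0.125 for Fst.

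**Figure D1:**
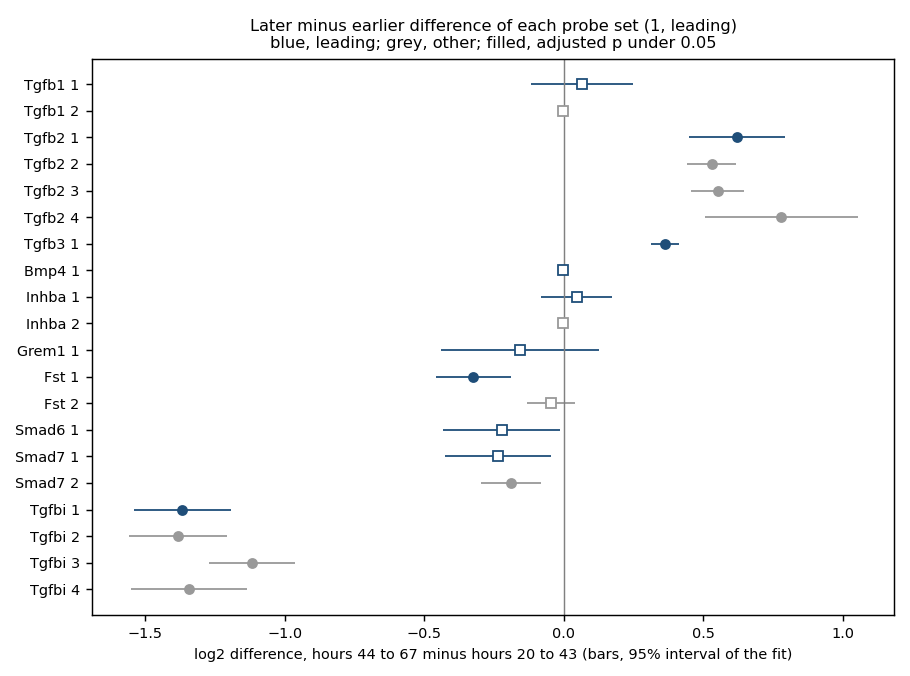
Later minus earlier difference (log2, horizontal axis) of all 20 member probe sets with the 95% interval of the fit, leading probe sets in blue and others in grey, filled where the adjusted p was under 0.05. The 4 Tgfbi probe sets lie between -1.38 and -1.12 and the 4 Tgfb2 probe sets between 0.53 and 0.78.

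Among the ligands, Tgfb2 showed the larger change. Its product is 1 of the 3 TGF-beta isoforms of mammals and is secreted in latent form. Tgfb2 (probe set 1450923_at) had a lowest value of 15.21, a median of 15.94 and a highest value of 16.10 in hours 44 to 67, against 13.9997, 15.40 and 15.87 in hours 20 to 43. The lowest values came from hour 45 in the later window and hour 20 in the earlier one, and 18 of 24 later arrays lay above every earlier array. The difference was 0.62 ± 0.09 (SE of the fit over 48 arrays, adjusted p = 9.75e-08), a 1.54-fold higher level (95% interval 1.36 to 1.73). The other 3 probe sets gave 0.53 ± 0.04, 0.55 ± 0.05 and 0.78 ± 0.14, each past the threshold. The windows were parted further in 1438303_at, with 23 of 24 later arrays above all earlier ones, and in 1450922_a_at, with 22.

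Tgfb2 climbed throughout the course. Means of successive 6 h blocks of the leading probe set were 14.83, 15.33, 15.38 and 15.55 in the first day and 15.65, 15.90, 15.98 and 16.05 in the second, with SDs of 0.04 to 0.51 (n = 6 arrays each). Every block lay above the one before it. The slope of this probe set was 0.55 ± 0.10 per 24 h within hours 44 to 67 and 0.89 ± 0.23 within hours 20 to 43. Over the whole course it was 0.66 ± 0.07, or 36.2 h for a doubling. For probe set 1438303_at the slope was 0.34 ± 0.05 in the later window and 0.82 ± 0.07 in the earlier one. At their slopes over the whole course, a doubling took 44.9 h for 1438303_at, 44.2 h for 1450922_a_at and 28.2 h for 1423250_a_at. The difference between the slopes of the 2 windows was not tested.

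Tgfb3, which encodes another of the isoforms, changed less but with little scatter. Its only probe set (1417455_at) had a lowest value of 14.81, a median of 14.99 and a highest value of 15.12 in hours 44 to 67, against 14.36, 14.59 and 14.90 in hours 20 to 43. Here 20 of 24 later arrays lay above all earlier ones, and the lowest value of the course fell at hour 25. The difference was 0.36 ± 0.03 (adjusted p = 6.28e-16), a 1.29-fold higher level (1.24 to 1.33). Unlike Tgfb2, its fitted course was not a steady climb, with a low at hour 28 and a high at hour 61. Block means were 14.56, 14.48, 14.64 and 14.80 in the first day and 14.88, 14.98, 15.04 and 15.04 in the second.

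Tgfb1, the isoform gene most often linked to fibrosis, did not pass. Its leading probe set (1420653_at) had a lowest value of 9.74, a median of 10.34 and a highest value of 11.11 in hours 44 to 67, against 9.63, 10.24 and 11.12 in hours 20 to 43. The windows overlapped almost entirely, with the highest values at hours 54 and 36. The difference was 0.07 ± 0.09 (95% interval -0.12 to 0.25, adjusted p = 0.536). Within the later window its slope was -0.51 ± 0.21 per 24 h, against -0.10 ± 0.22 in the earlier window. The spline over the course missed the threshold with all arrays (adjusted p = 0.0627). It passed when any 1 of 7 arrays was left out (hours 36, 37, 39, 57, 58, 62 or 65, lowest adjusted p 0.0135 without hour 36). A second Tgfb1 probe set stayed at 5.41 to 5.42 on all arrays.

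The other 2 ligand genes lay below the median level. Bmp4, whose product signals through the BMP branch, lay between 5.40 and 5.42 on all 48 arrays, a range of hundredths at the level of the array floor. Its difference was -0.003 ± 0.002 (adjusted p = 0.129), and its sign turned when array medians were centred (0.003). Inhba encodes the chain that forms activin A. Its leading probe set (1422053_at) had a lowest value of 6.05, a median of 6.39 and a highest value of 7.06 in hours 44 to 67, against 5.998, 6.39 and 7.10 in hours 20 to 43. Most arrays stayed near the common median. The highest values came at hours 22 to 24 (7.10, 6.85 and 6.76), at hours 45 and 46 (6.71 and 7.04) and at hours 53, 60 and 65 (6.71, 7.06 and 6.78). The difference was 0.05 ± 0.06 (adjusted p = 0.534).

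**Figure D2:**
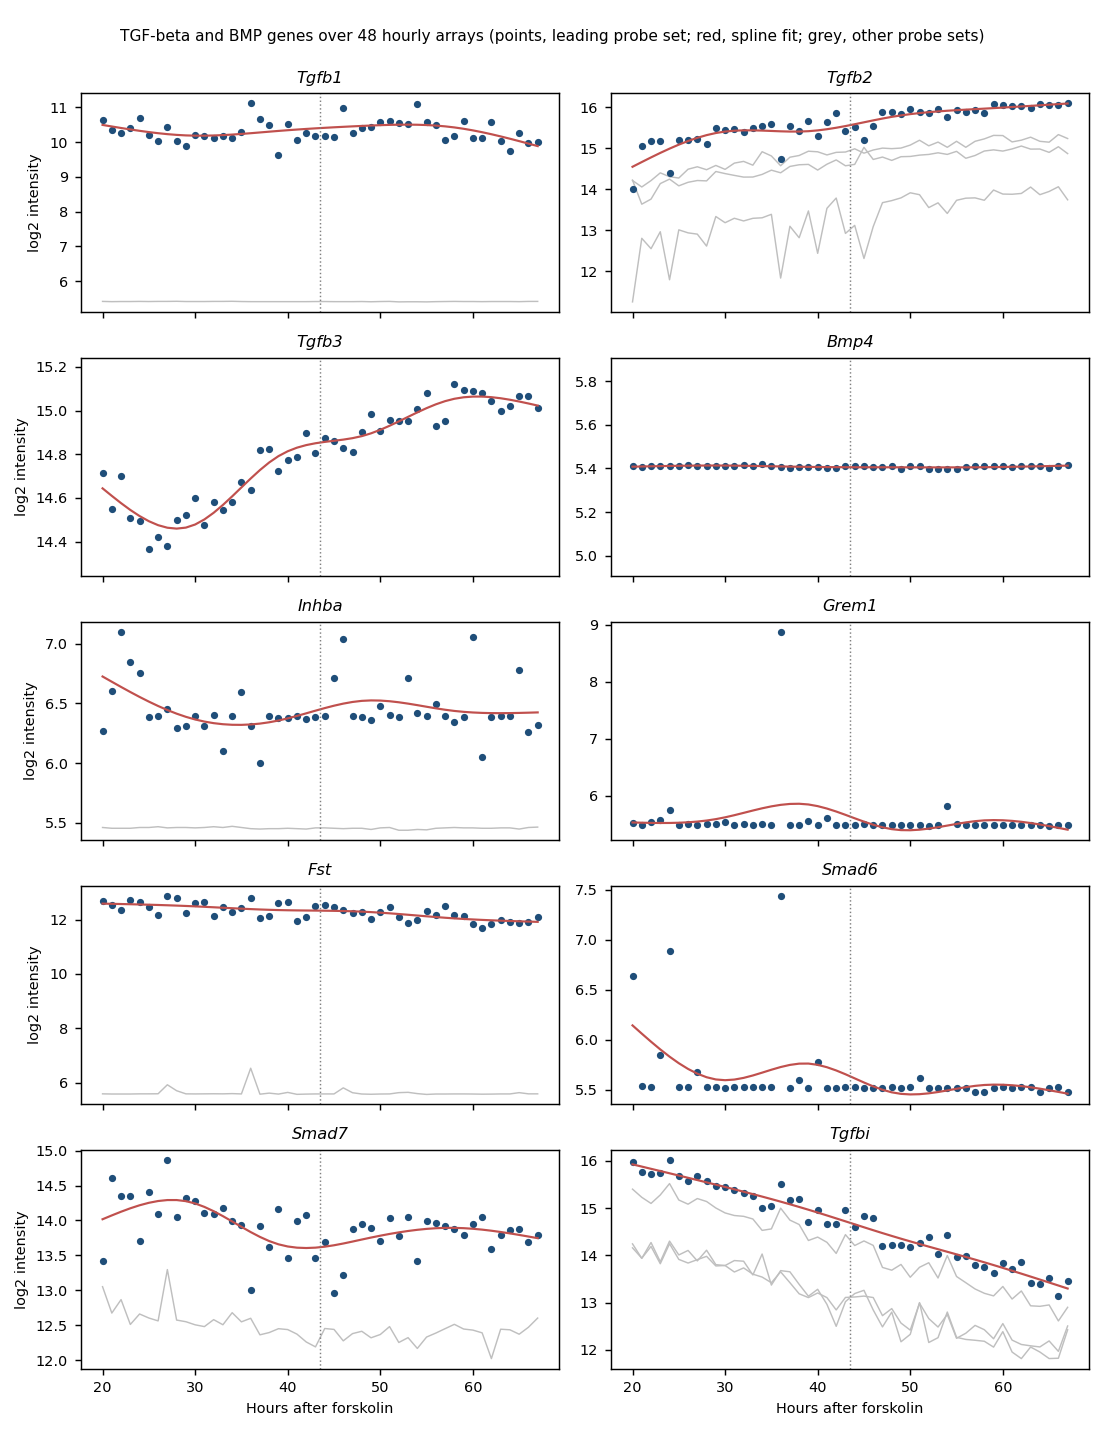
Log2 intensity (vertical axis, own scale per gene) by hour after forskolin (horizontal axis) for the 10 genes, with the leading probe set as points, its spline fit in red, other probe sets in grey and a dotted line between the windows. Tgfbi descends and Tgfb2 climbs over the course, Tgfb3 has a low at hour 28, and the high points of Grem1 and Smad6 sit at hour 36.

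Of the secreted inhibitors, Fst was lower in the later window. Its product, follistatin, binds activin and blocks it. Fst (1434458_at) had a lowest value of 11.71, a median of 12.12 and a highest value of 12.53 in hours 44 to 67, against 11.94, 12.49 and 12.88 in hours 20 to 43. The highest value fell at hour 27 and the lowest at hour 61, and 7 later arrays lay below all earlier ones. The difference was -0.33 ± 0.07 (adjusted p = 0.00013), a level of 0.798 of that in the earlier window (95% interval 0.727 to 0.876). The slope was -0.54 ± 0.12 per 24 h within hours 44 to 67 and -0.34 ± 0.18 within hours 20 to 43. A second Fst probe set (1421365_at) was near the floor on most arrays, with a highest value of 6.53 at hour 36.

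Grem1 encodes gremlin, which binds BMPs. It was at the floor on all but a few arrays. Its probe set (1425357_a_at) had a lowest value of 5.48, a median of 5.49 and a highest value of 5.82 in hours 44 to 67, against 5.48, 5.50 and 8.88 in hours 20 to 43. The value of 8.88 came from hour 36 alone, with 5.49 at both hours 35 and 37. The difference of -0.16 ± 0.14 (adjusted p = 0.329) became -0.02 without that array.

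Smad6, the inhibitory Smad that acts mainly on the BMP branch, was dim. Its probe set (1422771_at) had a lowest value of 5.48, a median of 5.52 and a highest value of 5.62 in hours 44 to 67, against 5.52, 5.53 and 7.44 in hours 20 to 43. Its highest values were 7.44 at hour 36, 6.89 at hour 24 and 6.64 at hour 20, all in the earlier window. The difference was -0.22 ± 0.10 (adjusted p = 0.0917), and -0.15 without hour 36.

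Smad7, which blocks the type I receptors and recruits ubiquitin ligases to them, was well above the floor. Its leading probe set (1423389_at) had a lowest value of 12.96, a median of 13.87 and a highest value of 14.05 in hours 44 to 67, against 12.9999, 14.08 and 14.87 in hours 20 to 43. The lows fell at hours 45 and 36 and the high at hour 27, and 13 earlier arrays lay above all later ones. The difference was -0.24 ± 0.09 and missed the threshold (adjusted p = 0.0569), whereas the second probe set (1443771_x_at) passed at -0.19 ± 0.05 (adjusted p = 0.00496). The leading probe set also passed when any 1 of 9 arrays was left out (hours 20, 24, 36, 38, 40, 43, 61, 64 or 67), with adjusted p of 0.0112 to 0.0891 over all 48 omissions. The slopes of the 2 probe sets were 0.28 ± 0.18 and 0.07 ± 0.08 per 24 h in hours 44 to 67, against -0.59 ± 0.27 and -0.55 ± 0.12 in hours 20 to 43.

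Tgfbi changed most among the 10 genes. It encodes a secreted matrix protein that binds collagens and integrins and was named for its induction by TGF-beta. Tgfbi (1448123_s_at) had a lowest value of 13.15, a median of 13.98 and a highest value of 14.84 in hours 44 to 67, against 14.65, 15.41 and 16.01 in hours 20 to 43. The lowest array was hour 66 and the highest hour 24, and 22 of 24 later arrays lay below all earlier ones. The difference was -1.37 ± 0.09 (adjusted p = 6.29e-17), so that the later level was 0.388 of the earlier one (95% interval 0.344 to 0.438). The other 3 probe sets gave -1.38 ± 0.09, -1.12 ± 0.08 and -1.34 ± 0.10.

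The fall of Tgfbi ran through both days at a near-even pace. Block means of the leading probe set were 15.82, 15.52, 15.22 and 14.85 in the first day and 14.48, 14.21, 13.78 and 13.46 in the second, with SDs of 0.11 to 0.30 (n = 6 arrays each). Every block lay below the one before it. The slope was -1.40 ± 0.13 per 24 h within hours 44 to 67 and -1.24 ± 0.11 within hours 20 to 43, and -1.36 ± 0.05 over the whole course. At that rate the signal halved every 17.6 h. At its slope of -0.33 ± 0.06 per 24 h, Fst signal would need 71.7 h to halve. Tgfb3 signal would need 70.7 h to double at 0.34 ± 0.02 per 24 h. Both times are longer than the course of 48 h, over which the spline ranges were 0.67 for Fst and 0.60 for Tgfb3. In all 5 leading probe sets had a linear slope past the threshold, beside 30.4% of all probe sets. The fifth was that of the dim Smad6 (-0.25 ± 0.10 per 24 h, adjusted p = 0.0413), whose high values came from hours 20, 24 and 36 of the earlier window. Without the 10 arrays of high β-actin gap, these 3 among them, the Smad6 window difference was -0.03, against -0.22 with all arrays.

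Members did not respond alike to the β-actin gap, and neither did probe sets of 1 gene. With the gap set beside the spline, a fit added after the data had been seen, 7 of 10 leading probe sets had a coefficient past the threshold (36.9% of all probe sets did), 5 positive and 2 negative. Per unit of gap the leading Smad7 probe set had a coefficient of -0.84 ± 0.08 (adjusted p = 4.69e-11), while its second probe set had 0.13 ± 0.07 (adjusted p = 0.226). The leading Tgfb2 probe set had -0.66 ± 0.05 (adjusted p = 1.46e-13) and 1423250_a_at had -1.22 ± 0.07, whereas 1438303_at had -0.06 ± 0.04 and 1450922_a_at had 0.13 ± 0.05, neither past the threshold. Dips at the arrays of large gap were thus deep in some probe sets of a gene and small or absent in others. At hour 36 the leading Tgfb2 probe set read 14.73, between 15.59 at hour 35 and 15.54 at hour 37, while 1438303_at read 14.58, between 14.81 and 14.78. At hour 45 the leading Smad7 probe set read 12.96, between 13.69 at hour 44 and 13.23 at hour 46, while the second read 12.44, between 12.45 and 12.28.

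The positive coefficients were 0.95 ± 0.20 for Grem1, 0.83 ± 0.12 for Smad6, 0.46 ± 0.13 for Tgfb1, 0.37 ± 0.06 for Tgfbi and 0.26 ± 0.10 for Fst (adjusted p = 0.0489). Tgfb3 had 0.02 ± 0.03, with no call. The window differences of Tgfb2, Tgfb3, Fst and Tgfbi stayed past the threshold with the gap as a covariate and without the 10 arrays of high gap. For Smad7 the difference passed in both, at -0.32 (adjusted p = 2.19e-05) with the covariate and -0.34 (adjusted p = 4.71e-05) without those arrays.

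**Figure D3:**
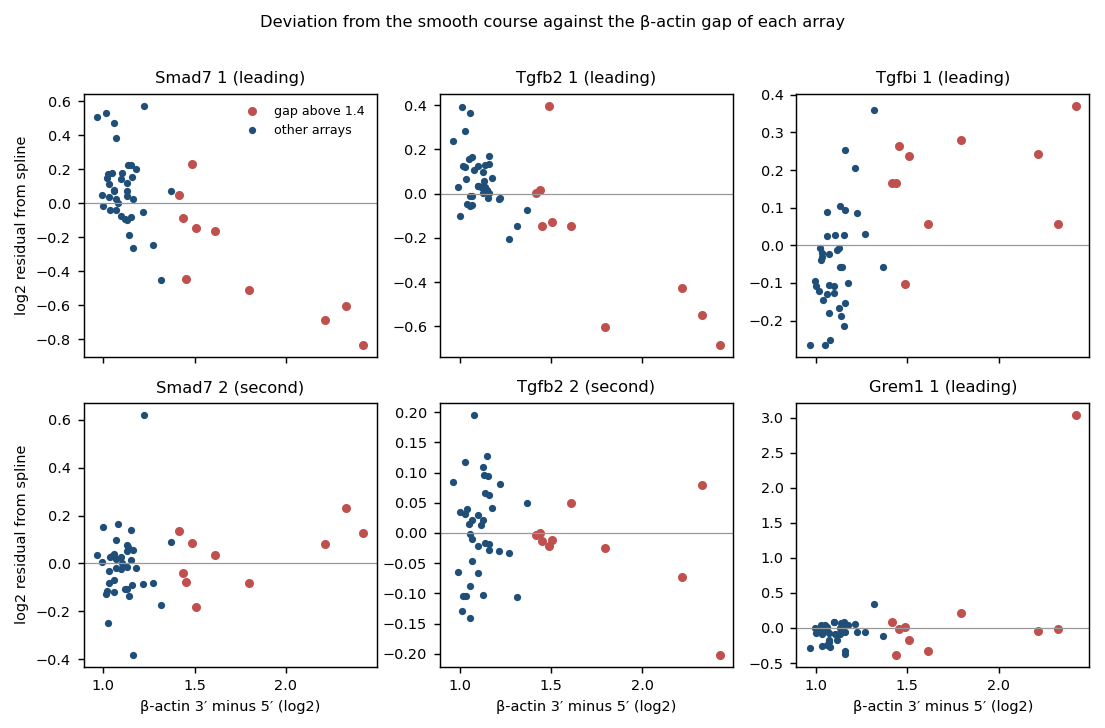
Residual of each array from the spline (log2, vertical axis) against the β-actin 3′ minus 5′ gap (log2, horizontal axis) for 6 probe sets of Smad7, Tgfb2, Tgfbi and Grem1, with the 10 arrays of gap above 1.4 in red and the other arrays in blue. The leading Smad7 and Tgfb2 probe sets run downward with the gap (-0.84 and -0.66 per unit) and the second ones do not, and the Grem1 panel has a single high point at hour 36.

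A daily rhythm was the study's own question. With a linear trend beside it, the 24 h cosine was called in 0 of 10 members by limma (0.293% of all probe sets, 132 in number), and no leading probe set had an unadjusted p under 0.05 (9.45% of all did). The largest fitted 24 h amplitude among leads above the median level was that of Smad7, 0.14 ± 0.07 (mean to peak, adjusted p = 0.713), and Tgfb2 had 0.12 ± 0.05 (adjusted p = 0.592). For Tgfbi it was 0.02 ± 0.04, beside a fall of 1.36 per 24 h. When a spline with 3 degrees of freedom replaced the linear trend, Tgfb3 alone of the members was called at 24 h. Its amplitude was 0.09 (adjusted p = 0.0084 in limma), and 238 probe sets in all were called under that setting.

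At 12 h and at 8 h limma called 0 of 10 members and 0.00% of all probe sets. At an unadjusted p under 0.05 the 12 h cosine took 506 probe sets (1.12%) and no member, and the 8 h cosine took 19540 probe sets (43.4%) and 1 member, Tgfbi (p = 0.0227, limma, amplitude 0.09 ± 0.03). Fisher's G-test, which had no trend removed, called 5 members (46.3% of all probe sets), namely Tgfb2, Tgfb3, Bmp4, Fst and Tgfbi. All 5 peaked at 48 h, the length of the course, and none at 24 h (0.782% of all probe sets). With the linear trend removed it called no member, and 766 probe sets in all. The spline, which takes any smooth course, called 6 members (74.2% of all probe sets), with fitted ranges of 2.63 for Tgfbi, 1.54 for Tgfb2, 0.69 for Smad7, 0.67 for Fst, 0.60 for Tgfb3 and 0.008 for Bmp4. At hour 34, where Bmp4 was highest, 37.0% of dim probe sets had their own highest value.

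The genes whose hourly pattern was most like each member were sought by Pearson correlation over the 48 arrays, among about 10365 genes above the median level. The points share their arrays, the trend over the course and the RNA quality of each array, so r is a description. For Tgfbi the nearest were Nfil3 (r = 0.988), which encodes a repressor that acts on clock output genes, Ecm1 (0.986), a secreted matrix protein gene, and Phlda1 (0.985). Their own later minus earlier differences were -0.76, -1.41 and -0.95. For Tgfb2 they were Tspan5 (0.973), Vegfd (0.972) and Celf2 (0.970), with differences of 0.40, 0.50 and 0.36. Their coefficients for the β-actin gap were -0.53, -0.41 and -0.35 per unit, beside -0.66 for Tgfb2 itself.

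Tgfb3 was most like Dipk1a (r = 0.948), the chemokine gene Ccl11 (0.943) and the matrix protease gene Mmp11 (0.939). Smad7 was most like Gadd45b (0.911), Dusp5 (0.890) and Ak1 (0.884), genes whose coefficients for the β-actin gap were -0.77, -1.005 and -0.63, beside -0.84 for Smad7 itself. For Fst, r reached 0.764 (Cers5), and the second nearest was Ltbp2 (0.761), itself a gene of the pathway. Tgfb1 reached 0.795 with Vmac, the dim Smad6 0.837 with Sac3d1 and Inhba 0.534 with Wars2. Grem1 reached 0.951 with Endov, but it was at the floor on all but a few arrays and read 8.88 at hour 36 alone. The β-actin gap coefficient of Endov was 0.92, beside 0.95 for Grem1. The dim Bmp4 reached 0.809 with Hspa14.

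Of 98 further genes of the pathway listed by role, 90 were measured. At their leading probe sets 15 were higher in the later window, 29 were lower and 46 did not pass, beside 12.6% higher and 13.8% lower over all probe sets. Of the 90, 58 lay above the median level, where 23.6% of probe sets were higher and 22.9% lower. The median difference was -0.006, against -0.004 over all probe sets. Genes named here beyond the 4 largest of a role were chosen after their values had been seen, to complete small counts.

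Of 17 other ligand genes, 16 lay below the median level and 1 passed. This was Inha, the inhibin alpha chain gene, at -0.34 ± 0.13 (adjusted p = 0.0478). Of 17 receptors and coreceptors, of which 11 lay above the median level, 4 were higher and 4 lower. Among all probe sets above that level 23.6% were higher and 22.9% lower. The BMP coreceptor gene Rgmb rose by 0.66 ± 0.05 in the later window, with smaller rises of Tgfbr2 (0.09), Tgfbr3 (0.07) and Bmpr2 (0.07). The decoy receptor gene Bambi fell by 0.71 ± 0.17. The activin receptor gene Acvr1b (-0.25 ± 0.03), Tgfbr1 (-0.12 ± 0.03) and the dim Acvr1c (-0.04 ± 0.01) were also lower. Of 6 signalling Smads, Smad5 alone passed, at 0.23 ± 0.05.

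Of 12 secreted inhibitors, of which 6 lay above the median level, 6 were lower and 1 was higher. The BMP antagonist genes Nbl1 and Bmper fell by 0.37 ± 0.07 and 0.26 ± 0.03, and Fstl3, a relative of Fst that binds activin, fell by 0.24 ± 0.04. Fstl1 (-0.09 ± 0.01), Twsg1 (-0.05 ± 0.01) and Sost (-0.01, near the floor at a mean of 5.56) were also lower. Dcn, the gene of decorin, a matrix proteoglycan that binds TGF-beta, rose by 0.16 ± 0.02. Among 11 genes of latency and activation, 3 latent TGF-beta binding protein genes were lower, Ltbp2 (-0.97 ± 0.09), Ltbp1 (-0.16 ± 0.02) and Ltbp3 (-0.11 ± 0.03). The protease genes Bmp1 (0.21 ± 0.05) and Furin (0.11 ± 0.02) and the integrin chain gene Itgav (0.07 ± 0.02) were higher. Bmp1 was also the 1 gene of the 90 with a called 24 h cosine, with an amplitude of 0.18 and an adjusted p of 0.0172 in limma.

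All 10 intracellular brakes lay above the median level, where 23.6% of probe sets were higher and 22.9% lower, and 5 were higher and 2 lower. Pmepa1, whose product keeps Smad2 and Smad3 from the receptor, rose by 0.72 ± 0.05, the corepressor genes Tgif2 by 0.35 ± 0.10 and Skil by 0.27 ± 0.04, and Ski and Tgif1 by 0.14 and 0.11. Nedd4l, a ubiquitin ligase gene, fell by 0.25 ± 0.05 and Strap by 0.10 ± 0.03. Of 17 genes listed as targets, 15 lay above the median level. Of the 17, 13 were lower and 1, Col1a1, was higher (0.07 ± 0.02), with a median difference of -0.37. Targets placed under another role are not in this count. The list was drawn up with earlier results of these data known, so the count is a description only. The largest falls were those of Id1 (-2.19 ± 0.15), Snai1 (-1.23 ± 0.12), Id3 (-1.07 ± 0.09) and Id2 (-0.81 ± 0.06). The Id genes encode inhibitors of helix-loop-helix factors and are classic BMP targets. Tgfbi, among the members, stood between Snai1 and Id1 in size.

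**Figure D4:**
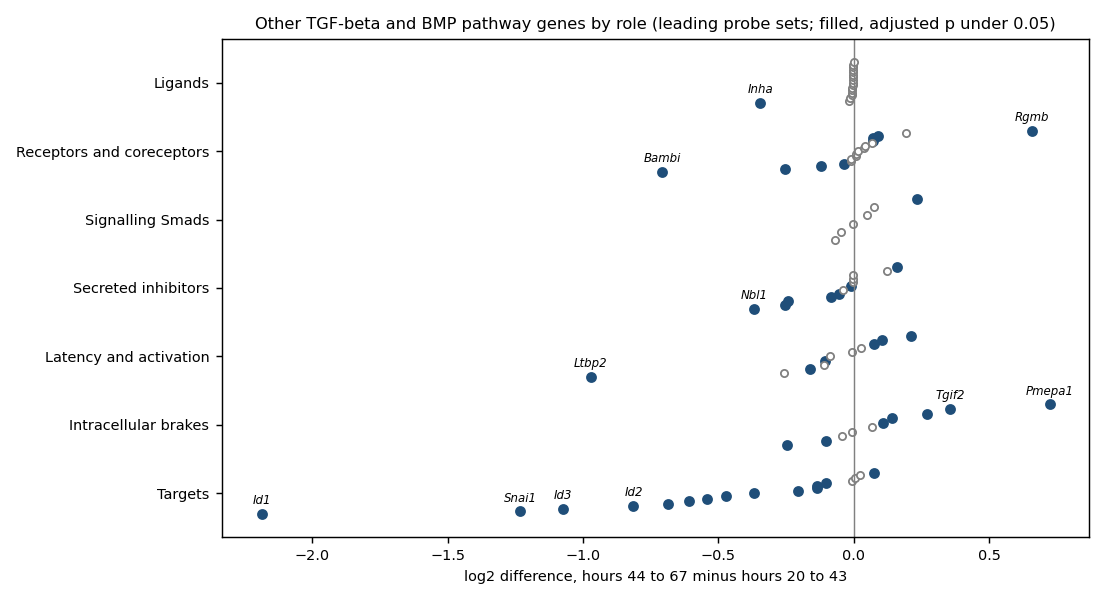
Later minus earlier difference (log2, horizontal axis) of the leading probe sets of 90 pathway genes by role, filled where the adjusted p was under 0.05, with the larger ones named. Genes listed as targets lie mostly left of zero (13 of 17 lower), and Pmepa1 (0.72) and Rgmb (0.66), listed under other roles, lie farthest to the right.

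Other marker lists moved between the windows as well. Of 10 fibroblast markers 5 were higher later, 3 were lower and 2 did not pass, from -0.46 for Thy1 to 0.20 for Pdgfrb. These 10 and the 5 measured cell cycle genes lay above the median level, where 23.6% of probe sets were higher and 22.9% lower. All 5 measured cell cycle genes were lower in the later window (median difference -0.99), and the log2 of their summed intensity ran from 17.01 to 17.84 in hours 44 to 67 and from 17.74 to 18.64 in hours 20 to 43. Of the smooth muscle markers 2 of 5 lay above the median level, Acta2 and Tagln, which are also on the target list, and both were lower later (-0.14 and -0.37). Myh11, Cnn1 and Des were near the floor, where Cnn1 also passed at -0.006. The log2 summed level of that list ran from 17.16 to 17.59 in hours 44 to 67 and from 17.36 to 17.72 in hours 20 to 43. Of the leukocyte markers 2 of 6 lay above the median, Cd14 (-0.42, past the threshold) and Cd68 (-0.11, not past it), with Ptprc, Adgre1, Itgam and Csf1r near the floor. The log2 summed level of that list ran from 12.25 to 13.04 in hours 44 to 67 and from 12.76 to 13.74 in hours 20 to 43. The part of these shifts in the members' differences was not tested. In such cultures fewer cells of a kind and less RNA per cell cannot be told apart.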

How the data were processed

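Total RNA of 48 hourly samples was hybridized to 1 array each. The deposited values are probe set intensities on a linear scale. The study's methods name GCRMA and the submitters' processing notes name MAS5, and the scaling constant is unknown. Their versions were not given in the sources used here. They were taken to log2 with no added constant. The 64 control probe sets were left out of tests. Of 45037 probe sets, 34945 had 1 symbol, 932 several and 9160 none.

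Windows were compared with limma 3.58.1 in R 4.3.3 beside a 24 h cosine. Courses were tested by a natural spline with 5 degrees of freedom, and rhythms by cosines of 24, 12 and 8 h beside a linear trend and by Fisher's G-test. Benjamini-Hochberg adjustment ran over all probe sets at 0.05. The ± values are standard errors of the fit. COSOPT was not run. The scripts were tested on simulated data. Python 3.11.15, numpy 2.4.6, pandas 2.3.3, scipy 1.17.1 and matplotlib 3.10.9 were used.

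Members and gene lists were chosen with earlier results of these data known. Named were all members, up to 4 pathway genes per role with the largest called difference, and the 3 genes most correlated with each member. Alternatives changed normalization, scale, filter, covariates, spline and arrays. Sequences came from RefSeq (GRCm38.p6). The number of arrays limits the precision.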

Additional observations from a re-analysis of the deposited data

How the results depend on the processing

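The window differences of Tgfbi, Tgfb2, Tgfb3 and Fst kept their direction under all alternatives run (-1.37 to -1.27, 0.50 to 0.63, 0.34 to 0.40 and -0.33 to -0.19 with single omissions set aside) and lost the threshold only with 6 h means, where limma passed 0 members and 0 probe sets (11917 with all arrays). Bmp4 turned to 0.00327 with array medians centred. Leaving out 1 array gave 11031 to 14989 probe sets and 4 to 5 members for the window, 30946 to 34928 and 6 to 8 for the spline, and 67 (hour 20) to 399 (hour 36) for the 24 h cosine. For the 8 h cosine such omissions gave 0 to 17085 (hour 49), and the β-actin covariate 3.

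Spline calls were 33430 with all probe sets, 19324 after quantile normalization, 14943 with medians centred, 15836 among probe sets above the median level and 14276 with a linear trend. Calls of the 24 h cosine were 132, against 283 above the median level, 79 with the β-actin covariate, 251 with a term for hours 52 to 55, 53 without hours 20 to 25, 238 with a spline covariate (1 member, Tgfb3) and 55 without the arrays of high β-actin gap, a setting chosen after the data had been seen. The G-test gave 20874 calls, 5 members and 352 at 24 h. These became 766, 0 and 64 with the trend removed, and 7610, 3 and 200 after quantile normalization, and Storey q-values gave 639 at 24 h. The causes were not tested. Smad7 passed the window test on linear values (adjusted p = 0.0254), above the median level (0.0331) and as the mean of its probe sets (-0.21, 0.0042). The Tgfb1 spline passed with 3 degrees of freedom (0.0195), with the β-actin covariate (0.0308) and without the high-gap arrays (0.0196), the Inhba spline without hour 20 (0.0238) and the Smad6 spline without hour 36 (0.0057). The Bmp4 spline failed under 3 settings. Each hour paired with the hour 24 h later, as a block, gave 10767 probe sets and the same 4 members in the window test, and the arrays carry no replicate numbers.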
